A study of Mus musculus with 47 samples.

Results

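MTF2 is an accessory subunit of Polycomb repressive complex 2 (PRC2), the enzyme complex that methylates lysine 27 of histone H3 at silent developmental genes. The data described here are the response of mouse embryonic stem cells (ESC) to 12 hours of auxin in a line whose MTF2 protein carries an auxin-inducible degron. They comprise 6 of the 47 RNA sequencing libraries of the series, 3 with auxin and 3 untreated, chosen by line, stage and treatment and not by any measured value. Auxin was 50 µM indole-3-acetic acid. It recruits degron-tagged proteins to Tir1, a plant F-box protein that marks them for destruction.

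The MTF2 cells had the genotype MTF2-AID, Tir1 on a C57BL/6 background. The cells they are read against were untagged, Tir1 on the same background, again 3 libraries with 12 hours of auxin and 3 untreated. All groups therefore shared Tir1. They also shared a serum-free N2B27 medium with leukemia inhibitory factor, the GSK3 inhibitor CHIR99021 and the MEK inhibitor PD0325901, which holds stem cells in a naive state. The SUZ12-AID and JARID2 degron lines, also with Tir1, had 3 ESC libraries with auxin and 3 untreated each and are used for side values. So are 6 libraries of MTF2-AID neural progenitor cultures, 3 with 5 days of auxin and 3 untreated. The series states biological replicates. It gives no clone numbers for the lines, and protein levels were not analysed here.

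PRC2 has a catalytic core of EZH2 or EZH1, SUZ12 and EED, and exists as alternative assemblies. PRC2.1 holds one of the Polycomb-like proteins MTF2, PHF1 or PHF19, and PRC2.2 holds JARID2 and AEBP2. Polycomb-like proteins contact unmethylated CpG-rich DNA and help bring the enzyme to CpG islands. In stem cells PRC2 covers many promoters of developmental regulators that are silent or barely transcribed.

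The level of a gene is given in TPM (transcripts per 1000000), a value scaled for gene length and library. The number of whole reads behind each value was recovered from the steps of the low TPM values. MTF2 libraries held 4.66 to 5.13 M reads with auxin and 3.27 to 5.24 M untreated (M, 1000000), and untagged libraries held 5.47 to 6.23 M with auxin and 5.32 to 5.54 M untreated. No library of these groups duplicated another. Changes are auxin over untreated on the log2(TPM + 0.5) scale with a standard error (SE), which understates the change of low genes. Calls are genes with an adjusted p under 0.05 in limma, two-sided, after Benjamini-Hochberg correction over 15104 genes.

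Degron action falls on protein, so the Mtf2 transcript does not check it. Mtf2 was at 55.3, 57.2 and 56 TPM with auxin, against 46.6, 54.8 and 55 TPM untreated. Its change was 0.11 ± 0.08 (SE, adjusted p = 0.636), and that of untagged cells was 0.14 (adjusted p = 0.719). No member of the PRC2 core list (0 of 6), of the PRC2.1 accessory list (0 of 4 tested) or of the PRC2.2 accessory list (0 of 2) was called by limma, and 0 of these 12 had an unadjusted p under 0.05. Suz12 changed by 0.11, Ezh2 by -0.02, Eed by -0.12, Jarid2 by -0.10, Phf19 by 0.16 and Phf1 by 0.07 on the log2 scale, with adjusted p-values of 0.478 or more.

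The cells carried the stem cell markers of their label. Summed over Pou5f1, Nanog, Sox2, Zfp42, Esrrb and Klf4, the level was 3730 to 3840 TPM with auxin and 3760 to 3860 TPM untreated, all 6 genes above 1 TPM. Of the markers of other cells, Ttr, Lum, Dcn, Postn, Cer1, Lhx1, Fabp7, Chat and Slc17a6 were listed at 0 in all 6 MTF2 libraries, but other members of the same lists were not. In MTF2 cells the 21 endoderm markers summed to 1120 TPM with auxin and 1120 to 1160 TPM untreated, and the 14 fibroblast markers to 441 to 459 TPM with auxin and 456 to 461 TPM untreated. Few genes carried these sums. Over the 6 MTF2 libraries Fn1 had 45854 reads, and the next fibroblast marker, Col5a1, had 283. Of the endoderm markers Sparc had 15161 reads and Apoe 11800, while Gata6 had 18 and Sox17 had 27. The 19 mesoderm markers summed to 74.9 to 84.3 TPM with auxin and 74.8 to 91.8 TPM untreated, and the 25 neural progenitor markers to 443 to 478 TPM with auxin and 457 to 492 TPM untreated. The 18 trophectoderm and epithelial markers summed to 336 to 345 TPM with auxin and 284 to 328 TPM untreated in MTF2 cells, and to 314 to 320 TPM with auxin and 304 to 312 TPM untreated in untagged cells. The 25 neuron markers summed to 615 to 635 TPM with auxin and 578 to 596 TPM untreated in MTF2 cells, and to 574 to 590 TPM with auxin and 555 to 574 TPM untreated in untagged cells. The part of these lists in the results below was not tested. In bulk RNA, fewer cells of a type and less RNA per cell cannot be told apart.

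Auxin for 12 hours changed few transcripts in MTF2 cells, and most of those changes were small. In total 164 genes were called (1.09% of those tested), 95 higher (0.629%) and 69 lower (0.457%). Untagged cells given the same auxin had 32 calls (0.212%), 9 higher (0.0596%) and 23 lower (0.152%). The median size of a called MTF2 change was 0.37 on the log2 scale, 124 of the 164 were under 1.5-fold and 11 were 2-fold or more. For all 164 the 3 auxin libraries did not overlap the 3 untreated ones, a separation seen in 14.4% of tested genes. The count fell to 91 without untreated replicate 1, to 95, 85 and 91 without auxin replicates 1, 2 and 3, and to 26 when the 6 libraries were fitted alone. The untagged count fell to 18 without untreated replicate 3 and to 19 without auxin replicate 1, 2 or 3. Leaving out each of the 6 libraries in turn kept 55 of the MTF2 calls throughout, 24 higher and 31 lower. Of these 55, 23 were also called in untagged cells, against 25 of all 164.

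Most called genes had the same sign of change in untagged cells. Of the 164, 151 had the same sign there (92.1%), against 56.5% of all tested genes, and the 2 lines share no library. Over the called genes the untagged change was 0.448 of the MTF2 change at the median, 0.39 for genes called higher and 0.621 for genes called lower. Of the calls, 25 were also called in untagged cells in the same direction, which is 15.2% of the MTF2 calls and 78.1% of the untagged ones. These 25 were 6 genes called higher and 19 called lower. The remaining 139 calls had a median change of 0.36 in MTF2 cells and, in the same direction, 0.13 in untagged cells.

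**Figure D1:**
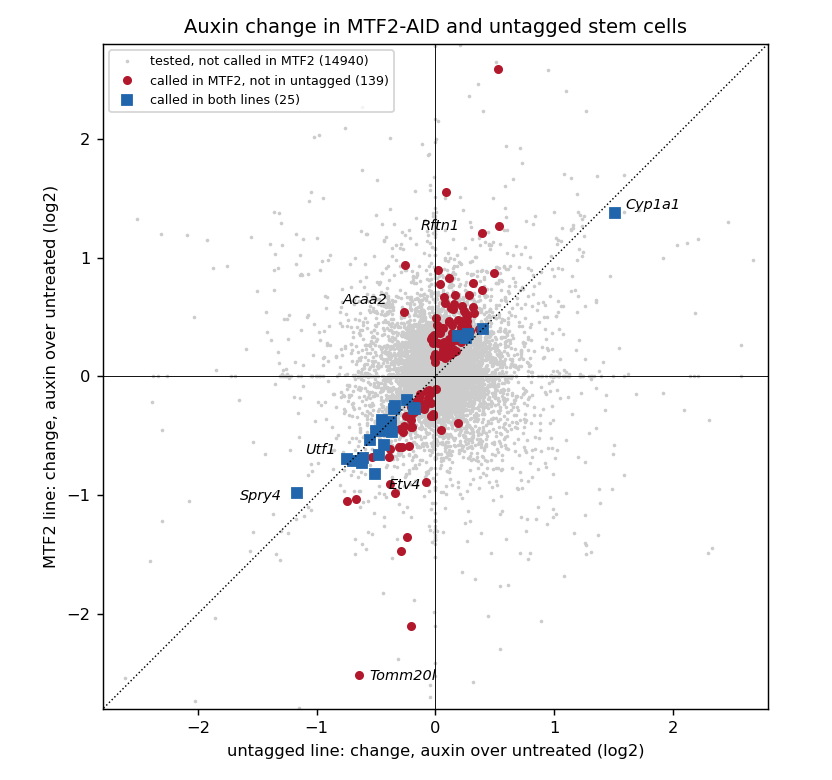
Change after 12 hours of auxin (log2, auxin over untreated) in the MTF2 line (vertical) against the untagged line (horizontal), 1 point per tested gene; red circles are the 139 genes called in the MTF2 line and not in the untagged line, blue squares the 25 called in both, and the dotted line marks equal change. The blue squares lie along the dotted line, most red circles lie on the same side of 0 in both lines but nearer to 0 in the untagged one, and 28 uncalled genes lie beyond the axes.

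The genes that rose furthest were mostly low in expression. The 12 named rises and 12 named falls, the largest among calls with an established gene name, rested on 8 to 6550 reads over the 6 MTF2 libraries, and 7 of the 24 on under 100. Rftn1, which encodes the lipid raft protein raftlin, was at 4.78, 5.25 and 4.13 TPM with auxin, against 2.14, 1.57 and 1.59 TPM untreated. The groups were well apart, and the change of 1.21 ± 0.15 had an adjusted p of 0.00011. In untagged cells Rftn1 was at 3.71, 4.22 and 4.55 TPM with auxin, against 3.12, 2.85 and 3.16 TPM untreated, a change of 0.39 that was not called (adjusted p = 0.517). The auxin levels of the 2 lines were close, and the untreated MTF2 level was below the untreated untagged level in all 3 libraries.

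Pdlim4, an actin-binding PDZ and LIM domain protein, was at 4.03, 2.99 and 2.64 TPM with auxin, against 1.14, 0.72 and 1.27 TPM untreated. That change of 1.27 ± 0.26 (adjusted p = 0.0161) rested on 25 and 7 reads and was not called without untreated replicate 2 or without auxin replicates 1 or 2. In untagged cells 1 auxin library stood at 6.45 TPM and the other 2 at 2.79 and 2.43 TPM, against 2.14, 2.71 and 2.09 TPM untreated, and the groups overlapped. Zfp703, a zinc finger corepressor, was at 4.54, 5.29 and 3.98 TPM with auxin, against 2.28, 2.09 and 2.47 TPM untreated (0.87 ± 0.15, adjusted p = 0.00489). Untagged cells changed in the same direction by 0.49 (adjusted p = 0.364), with 4.06 to 5.08 TPM with auxin and 2.58 to 3.3 TPM untreated.

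The promoters of Pdlim4 and Rftn1 are shown as examples of named rises with many CG, since Polycomb-like proteins contact CpG-rich DNA. Each run covers 250 bases before to 50 after the RefSeq start on GRCm38.p6, on the gene's own strand, with every CG in capitals. Pdlim4 lies at chr11:54068968-54069267 on the minus strand and holds 31 CG, and Rftn1 at chr17:50190448-50190747 on the minus strand and holds 30. The median over 10913 tested genes with a promoter in the table was 20 CG, and 21.9% held 30 or more. CG was present in 99.2% of them. Other named rises had few, with 4 CG in Cyp1a1, 5 in Lgals7 and 6 in Slc24a5, and named falls reached as many or more, with 31 in Adam23 and 42 in Enox1. Rftn1 was added after its values were seen.
Pdlim4: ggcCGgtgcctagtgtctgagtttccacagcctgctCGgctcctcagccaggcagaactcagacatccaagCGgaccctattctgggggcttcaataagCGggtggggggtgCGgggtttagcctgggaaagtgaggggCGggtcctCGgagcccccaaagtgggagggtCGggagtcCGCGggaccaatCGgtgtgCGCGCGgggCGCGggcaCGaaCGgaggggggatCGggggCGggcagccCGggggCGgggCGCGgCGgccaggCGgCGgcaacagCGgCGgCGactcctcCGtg
Rftn1: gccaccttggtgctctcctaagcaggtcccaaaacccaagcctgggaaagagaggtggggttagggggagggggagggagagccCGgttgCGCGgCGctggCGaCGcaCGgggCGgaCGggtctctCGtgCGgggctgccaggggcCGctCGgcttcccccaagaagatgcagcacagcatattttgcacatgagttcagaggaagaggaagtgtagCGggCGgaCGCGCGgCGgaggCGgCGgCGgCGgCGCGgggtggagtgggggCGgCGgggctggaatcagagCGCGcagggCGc

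Among the other large rises the untagged groups mostly overlapped. Ogfod2, which encodes a predicted iron-dependent oxygenase, was at 4.83, 5.49 and 6.79 TPM with auxin, against 3.11, 2.74 and 2.31 TPM untreated (0.94 ± 0.18, adjusted p = 0.0107), while untagged cells changed by -0.26. Lgals7, a galectin, was at 7.58, 10.9 and 8.4 TPM with auxin, against 2.93, 6.15 and 5.08 TPM untreated (0.89), and changed by 0.02 in untagged cells. Megf11, an EGF-repeat membrane protein, was at 3.56, 4.03 and 3.89 TPM with auxin, against 2.02, 1.74 and 2.32 TPM untreated (0.78), and changed by 0.04 in untagged cells. Of the 12 rises, 8 had overlapping auxin and untreated groups in untagged cells and 1 was called there. The rest were Phldb3 (0.83), the ion exchanger gene Slc24a5 (0.79), the homeobox gene Tlx2 (0.73), Ncmap (0.68) and Mlxipl (0.68), which encodes the glucose-responsive factor ChREBP. The Tlx2 and Ncmap calls held in 5 of 14 alternative settings each and were lost without any 1 of the 6 MTF2 libraries. Those of Ogfod2 (untreated replicate 3 or auxin replicate 3), Lgals7 (untreated replicate 1 or auxin replicates 2 or 3), Megf11 (untreated replicate 2 or auxin replicates 2 or 3) and Phldb3 (auxin replicate 1) were lost without the libraries named. The Slc24a5 call was lost without untreated replicates 1 or 2 or auxin replicates 1 or 2, and the Mlxipl call without untreated replicate 2 or any auxin replicate.

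The rise called in both lines was Cyp1a1, the cytochrome P450 that is the classical target of the aryl hydrocarbon receptor. It was at 0.676, 0.94 and 0.792 TPM with auxin in MTF2 cells and listed at 0 in all 3 untreated libraries, 15 reads against 0. Against a floor of 3 reads over the untreated group it was at least 4.39-fold higher (adjusted p = 0.0176), a call lost without untreated replicate 1 or without auxin replicates 2 or 3. In untagged cells it was at 1.76, 0.644 and 1.91 TPM with auxin, against 0.15, 0.142 and 0.146 TPM untreated (adjusted p = 0.023). The MTF2 change minus the untagged change was -0.13, with a 95% interval of -0.98 to 0.72, on a scale where the pseudocount sets much of the size for so few reads. Cyp1a1 was also called higher in the SUZ12 line (adjusted p = 0.000168) and the JARID2 line (adjusted p = 0.00441). Of the 9 tested genes of the receptor's list it was the 1 call in MTF2 cells, where 0.629% of all tested genes were called higher. Nqo1 changed by 0.18 in MTF2 cells (adjusted p = 0.196) and rose by 0.30 in untagged cells (adjusted p = 0.0332).

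The Cyp1a1 promoter is shown with GCGTG, the core that the receptor and its partner ARNT recognise, in capitals on either strand. It lies at chr9:57697363-57697662 on the plus strand of GRCm38.p6 and holds 1 match and 4 CG. GCGTG on either strand was present in 50.5% of the 10913 promoters.
Cyp1a1: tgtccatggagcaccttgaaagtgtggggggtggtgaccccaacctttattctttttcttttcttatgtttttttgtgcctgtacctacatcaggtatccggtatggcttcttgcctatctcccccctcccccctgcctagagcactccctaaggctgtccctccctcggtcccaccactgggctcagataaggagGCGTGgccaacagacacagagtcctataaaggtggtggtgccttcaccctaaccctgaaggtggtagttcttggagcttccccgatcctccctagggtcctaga

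**Figure D2:**
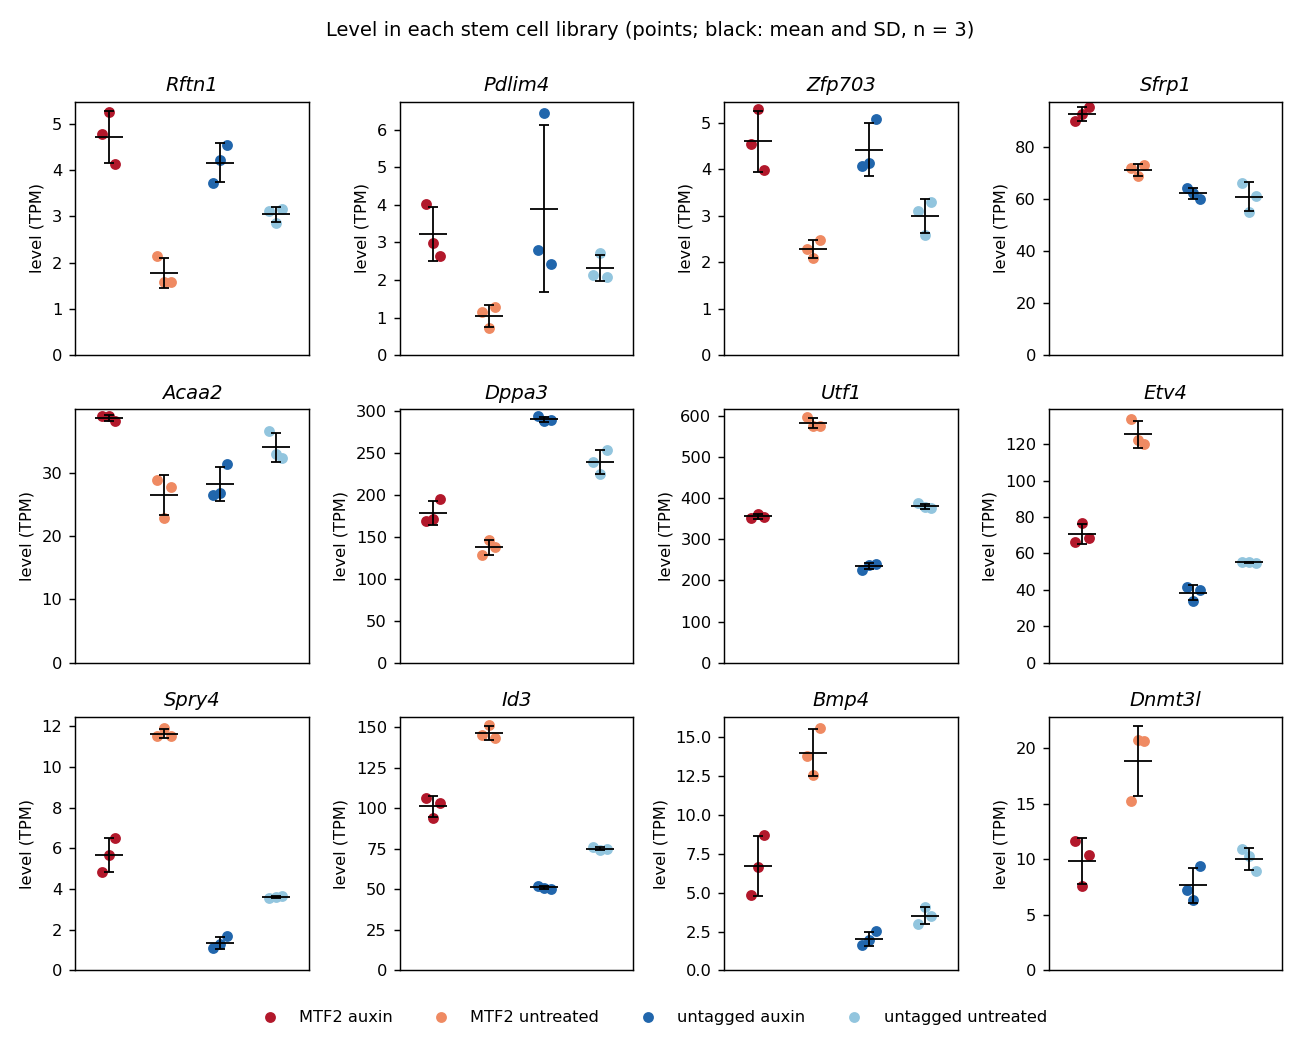
Level (TPM, vertical, from 0) of 12 named genes in each library of 4 stem cell groups, from left to right MTF2 auxin, MTF2 untreated, untagged auxin and untagged untreated; points are libraries and black marks are the mean and SD of 3. Utf1, Etv4, Spry4 and Id3 are lower with auxin in both lines, Rftn1 and Sfrp1 are higher with auxin in the MTF2 line, and Acaa2 is higher with auxin in the MTF2 line but not in the untagged line.

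The 12 named falls included a pluripotency factor and genes induced by growth factor signalling, beside barely expressed genes and genes of other roles. Utf1, a chromatin-bound pluripotency factor at chr7:139943789-139945112, was at 351, 362 and 354 TPM with auxin, against 597, 576 and 576 TPM untreated. Its change of -0.71 ± 0.04 had the smallest adjusted p of the named genes, 5.96e-10. In untagged cells it was at 226, 238 and 240 TPM with auxin, against 388, 378 and 377 TPM untreated, a change of -0.70. The difference of the changes was -0.02, with a 95% interval of -0.13 to 0.10. The 2 lines differed in level and not detectably in the size of the fall. The Utf1 promoter, at chr7:139943606-139943905 on the plus strand of GRCm38.p6 and added after its values were seen, holds 17 CG and is shown with CG in capitals because this call had the smallest adjusted p.
Utf1: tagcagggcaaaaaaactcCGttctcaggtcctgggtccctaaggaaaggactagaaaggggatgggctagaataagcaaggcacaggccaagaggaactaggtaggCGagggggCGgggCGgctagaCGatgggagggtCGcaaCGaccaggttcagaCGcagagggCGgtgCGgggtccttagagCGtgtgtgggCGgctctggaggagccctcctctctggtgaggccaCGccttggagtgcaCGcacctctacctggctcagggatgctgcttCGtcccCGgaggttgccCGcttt

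Etv4, an ETS factor induced by FGF signalling, was at 66.5, 76.8 and 68.7 TPM with auxin, against 134, 122 and 120 TPM untreated (-0.83 ± 0.09, adjusted p = 1.29e-05). In untagged cells it was at 41.6, 34.1 and 40 TPM with auxin, against 55.2, 55.3 and 54.6 TPM untreated (-0.51, adjusted p = 0.00734). Spry4, a feedback inhibitor of receptor tyrosine kinases, was at 4.85, 5.67 and 6.52 TPM with auxin, against 11.5, 11.9 and 11.5 TPM untreated (-0.98 ± 0.14, adjusted p = 0.000574). In untagged cells it was at 1.1, 1.28 and 1.67 TPM with auxin, against 3.55, 3.63 and 3.65 TPM untreated (-1.16, adjusted p = 0.000128). Both genes fell in both lines, and their untreated level was higher in MTF2 cells. They were the 2 calls among 23 tested ERK and FGF targets, where 0.457% of all tested genes were called lower. The list's median change was -0.09 in MTF2 cells and -0.13 in untagged cells, against 0.02 over all tested genes in each line.

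Of the largest falls, 3 belonged to genes that were barely expressed. Tomm20l, similar to a mitochondrial import receptor, was listed at 0 in all auxin libraries, against 3.45, 2.17 and 1.71 TPM untreated, 0 reads against 8. Against a floor of 3 reads over the auxin group it was at least 3.04-fold lower (adjusted p = 0.0215). Pomc, the precursor of several peptide hormones, was at 1.46, 1.35 and 0.684 TPM with auxin, against 5.18, 2.93 and 4.23 TPM untreated, 10 reads against 30. Tm4sf5, a tetraspan membrane protein, was at 1.49, 0.92 and 1.4 TPM with auxin, against 4.92, 2.66 and 4.7 TPM untreated, 8 reads against 22. In untagged cells all 3 overlapped between auxin and untreated. The Tomm20l call was lost without untreated replicates 1 or 2 or any auxin replicate, the Pomc call without untreated replicates 1 or 3 or auxin replicates 2 or 3, and the Tm4sf5 call, which held in 6 of 14 settings, without any 1 library other than untreated replicate 2. The Tomm20l promoter, the largest named fall, lies at chr12:71111178-71111477 on the plus strand of GRCm38.p6 and holds 13 CG, in capitals.
Tomm20l: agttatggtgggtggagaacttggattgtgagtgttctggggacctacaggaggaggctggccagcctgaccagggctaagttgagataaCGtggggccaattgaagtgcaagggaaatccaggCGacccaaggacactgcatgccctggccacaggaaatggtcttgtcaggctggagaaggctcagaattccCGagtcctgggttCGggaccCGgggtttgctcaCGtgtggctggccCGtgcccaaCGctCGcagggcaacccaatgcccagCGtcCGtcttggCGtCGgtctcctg

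Adam23, a catalytically inactive ADAM family protein, was at 3.04, 2.05 and 2.78 TPM with auxin, against 7.33, 5.23 and 5.37 TPM untreated (-1.05 ± 0.17, adjusted p = 0.00304), and untagged cells changed by -0.75 (adjusted p = 0.0999). Rab27a, a GTPase of vesicle transport, was at 3.51, 3.15 and 3.75 TPM with auxin, against 7.39, 6.28 and 6.89 TPM untreated (-0.89 ± 0.16, adjusted p = 0.00508). Untagged Rab27a overlapped between groups and changed by -0.08. The metal transporter Slc39a14 (-0.73 in MTF2 cells, -0.62 in untagged cells) and Enox1 (-0.69 in MTF2 cells, -0.74 in untagged cells) were called in both lines. Of the 12 named falls, 5 were called in untagged cells and 5 overlapped there.

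**Figure D3:**
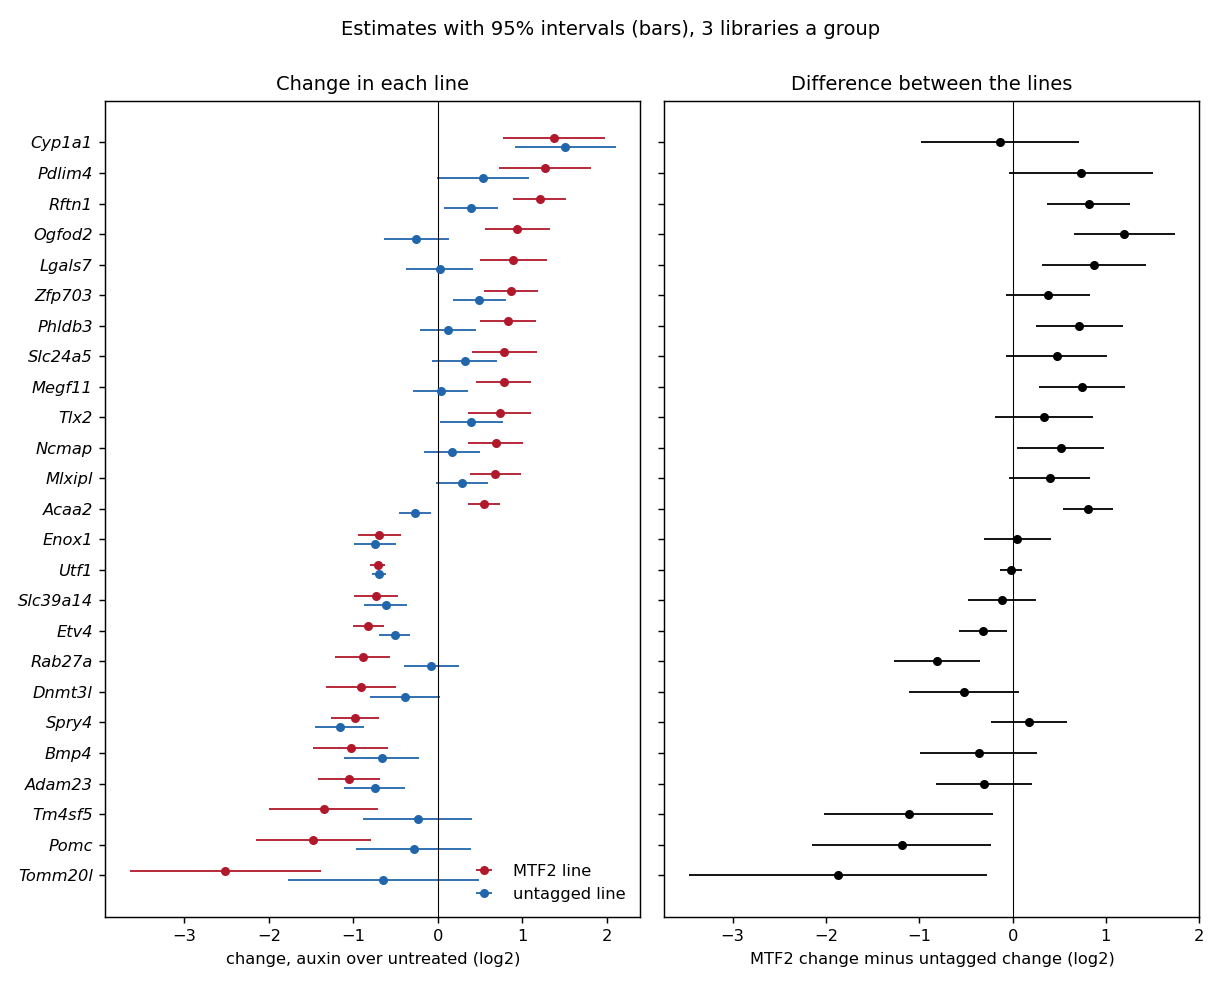
Left, change after auxin (log2, with 95% intervals) of the 12 largest named rises, the 12 largest named falls and Acaa2 in the MTF2 line (red) and the untagged line (blue); right, the MTF2 change minus the untagged change. The right-hand interval includes 0 for 6 of the 12 rises and 7 of the 12 falls, among them Cyp1a1, Utf1, Spry4 and Enox1.

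Of 20 general pluripotency genes tested, 6 were called lower and 1 higher, where all tested genes had 0.457% called lower and 0.629% higher. In all 14 of the 20 were below 0, with a median of -0.11. In untagged cells 2 were called lower, none higher and 15 were below 0, with a median of -0.06. Beside Utf1, the genes that fell included Lin28a, Tdgf1, Tdh and Pou5f1. The Tdgf1 and Pou5f1 calls held in 8 of 14 settings each, Tdgf1 being lost without untreated replicates 2 or 3 or auxin replicates 1 or 3, and Pou5f1 without untreated replicates 1 or 3 or auxin replicates 1 or 2. Lin28a, which blocks let-7 maturation, was at 38.2, 41.4 and 43 TPM with auxin, against 59.8, 53.7 and 55.2 TPM untreated (-0.46), and fell by 0.41 on the log2 scale in untagged cells (adjusted p = 0.0119). The threonine dehydrogenase gene Tdh was at 1090, 1080 and 1100 TPM with auxin, against 1180, 1180 and 1190 TPM untreated (-0.12, adjusted p = 0.00554), a small change that was called.

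The core factors themselves moved little. Pou5f1 was at 1840, 1820 and 1890 TPM with auxin, against 2010, 1970 and 2030 TPM untreated (-0.11 ± 0.03, adjusted p = 0.0376), and untagged cells changed by -0.06. Nanog was at 778, 813 and 777 TPM with auxin, against 658, 714 and 705 TPM untreated (0.19 ± 0.04, adjusted p = 0.00598), and untagged cells changed by 0.08. Sox2 averaged 390 ± 16.4 TPM with auxin and 381 ± 7.69 TPM untreated (SD, n = 3 each) and was not called (adjusted p = 0.787). Nanog, Pou5f1 and Tdgf1 have pseudogene copies in the genome, and since the counting method is not given, reads may be split among them.

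Naive pluripotency genes went both ways, with 3 called higher and 3 lower of 24 tested (0.629% and 0.457% over all tested genes). Those that rose were Nanog, Klf4 and Dppa3. Dppa3, an oocyte and naive-state protein that protects methylation marks, was at 169, 171 and 195 TPM with auxin, against 128, 146 and 138 TPM untreated (0.37, adjusted p = 0.00332), and untagged cells changed by 0.28 (adjusted p = 0.0896). Klf4 averaged 282 ± 7.29 TPM with auxin and 252 ± 10.4 TPM untreated (SD, n = 3 each; 0.16, adjusted p = 0.0418), and untagged cells changed by -0.01. The Klf4 call was lost without untreated replicates 1 or 2 or any auxin replicate, the Nanog call without untreated replicate 1 or auxin replicate 2, and the Zfp57 call without auxin replicate 3. Klf4 and Pou5f1 lie outside the rule for named genes and were chosen after their values were seen. Those that fell were Manba (-0.46), the orphan receptor gene Nr0b1 (-0.27) and the imprint-protecting zinc finger gene Zfp57 (-0.18). Manba, a lysosomal mannosidase, fell by 0.50 on the log2 scale in untagged cells (adjusted p = 0.000834).

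Of 17 tested genes of DNA methylation, 3 were called lower and 0 higher by limma, against 0.457% lower and 0.629% higher over all tested genes. Dnmt3l, the cofactor of the de novo methyltransferases, was at 11.6, 7.56 and 10.4 TPM with auxin, against 15.2, 20.7 and 20.6 TPM untreated (-0.91 ± 0.20, adjusted p = 0.0249). That call held in 9 of 14 settings and was lost without untreated replicates 2 or 3, without auxin replicates 2 or 3, and with the 6 libraries fitted alone. Untagged Dnmt3l was at 7.22, 6.35 and 9.42 TPM with auxin, against 10.9, 10.3 and 8.94 TPM untreated, overlapping by 1 library (-0.39). The methyltransferase gene Dnmt3a was at 17.7, 17.6 and 17.7 TPM with auxin, against 23.5, 22.1 and 21.5 TPM untreated (-0.33, adjusted p = 0.00383), and untagged cells changed by -0.24 (adjusted p = 0.0999). The third was Zfp57. The list's median was -0.02, and 10 of the 17 genes were below 0, against 13 of 17 in untagged cells. Dnmt3a and Etv4 were also the 2 calls among 16 tested formative epiblast genes.

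The called genes of the BMP list were Bmp4, Id3 and Acvr1. Bmp4, a ligand, was at 4.86, 6.66 and 8.72 TPM with auxin, against 13.8, 12.6 and 15.6 TPM untreated (-1.03 ± 0.21, adjusted p = 0.0159), a call lost without untreated replicates 1 or 3 or auxin replicates 1 or 2. Untagged Bmp4 was at 1.65, 1.93 and 2.55 TPM with auxin, against 3, 4.08 and 3.48 TPM untreated (-0.67, adjusted p = 0.384). Id3, a BMP-induced inhibitor of helix-loop-helix factors, was at 106, 94.1 and 103 TPM with auxin, against 145, 151 and 143 TPM untreated (-0.53, adjusted p = 2.76e-05). Untagged Id3 was at 52.3, 51.1 and 50.1 TPM with auxin, against 76, 74.1 and 74.7 TPM untreated (-0.55), and the difference of the changes was 0.01, with a 95% interval of -0.17 to 0.19. Acvr1, a type I receptor gene of the BMP family, was at 7.8, 10.3 and 8.47 TPM with auxin, against 5.26, 5.53 and 5.99 TPM untreated (0.61, adjusted p = 0.0349). Its call held in 6 of 14 settings and was lost without any 1 library other than auxin replicate 1. In all, 1 of 17 tested genes of the list was called higher and 2 lower, against 0.629% higher and 0.457% lower over all tested genes. Among Nodal genes the co-receptor gene Tdgf1 was the 1 call of 18 tested (-0.21), and among retinoic acid genes the receptor gene Rarg the 1 call of 12 (-0.24, adjusted p = 0.00554).

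Developmental regulators that Polycomb marks in stem cells were mostly below the filter or not called. Of 182 listed, 100 had at least 1 TPM in 2 stem cell libraries of any line and were tested. Of these, 2 were called higher and 2 lower, against 0.629% called higher and 0.457% lower over all tested genes. At an unadjusted p under 0.05 there were 22 of the 100, against 11.2% of all tested genes. In untagged cells there were 13 of the 100, against 7.57% of all tested genes. The median change of the 100 in MTF2 cells was 0.07, against 0.02 over all tested genes. In MTF2 cells 57 of the 100 were above 0, against 55.95% of all tested genes. In untagged cells 51 of 100 were above 0, against 56.93% of all tested genes. The 2 called higher were Zfp703, whose call held in 13 of 14 settings, and Tlx2, whose call held in 5 of 14. Tlx2 was at 26, 27.8 and 31.3 TPM with auxin, against 18.2, 16.9 and 15.6 TPM untreated (adjusted p = 0.0487), while untagged cells were at 9.15 to 10.5 TPM with auxin and 4.78 to 9.64 TPM untreated. The Tlx2 call was lost without any 1 of the 6 MTF2 libraries, with a pseudocount of 0.1, with no filter and with median-of-ratios scaling. Those called lower included Eomes, a transcription factor of primitive streak formation, at 9.11, 11.2 and 9.4 TPM with auxin against 17, 15.2 and 16 TPM untreated (-0.68). In untagged cells Eomes changed by -0.54 without a call. The Eomes call in MTF2 cells was lost without untreated replicates 1 or 3 or auxin replicates 1 or 3.

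Hox genes were near the limit of detection. Of 39 listed, 12 were tested and 0 were called by limma, and at an unadjusted p under 0.05 there were 2. Hoxc4 was at 1.09, 1.22 and 1.13 TPM with auxin, against 0.775, 0.488 and 0.23 TPM untreated, 33 reads against 12 (adjusted p = 0.287). Hoxc11 rested on 5 reads against 0. At this depth a change in most Hox genes was not detectable. PRC1 genes, the partner complex of PRC2, gave 0 calls of 25 (1 at an unadjusted p under 0.05). The histone demethylase and deubiquitylase genes gave 0 of 6 (0 at an unadjusted p under 0.05). Of these 6, Uty had 1 read in the 6 MTF2 libraries, too few for a call.

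**Figure D4:**
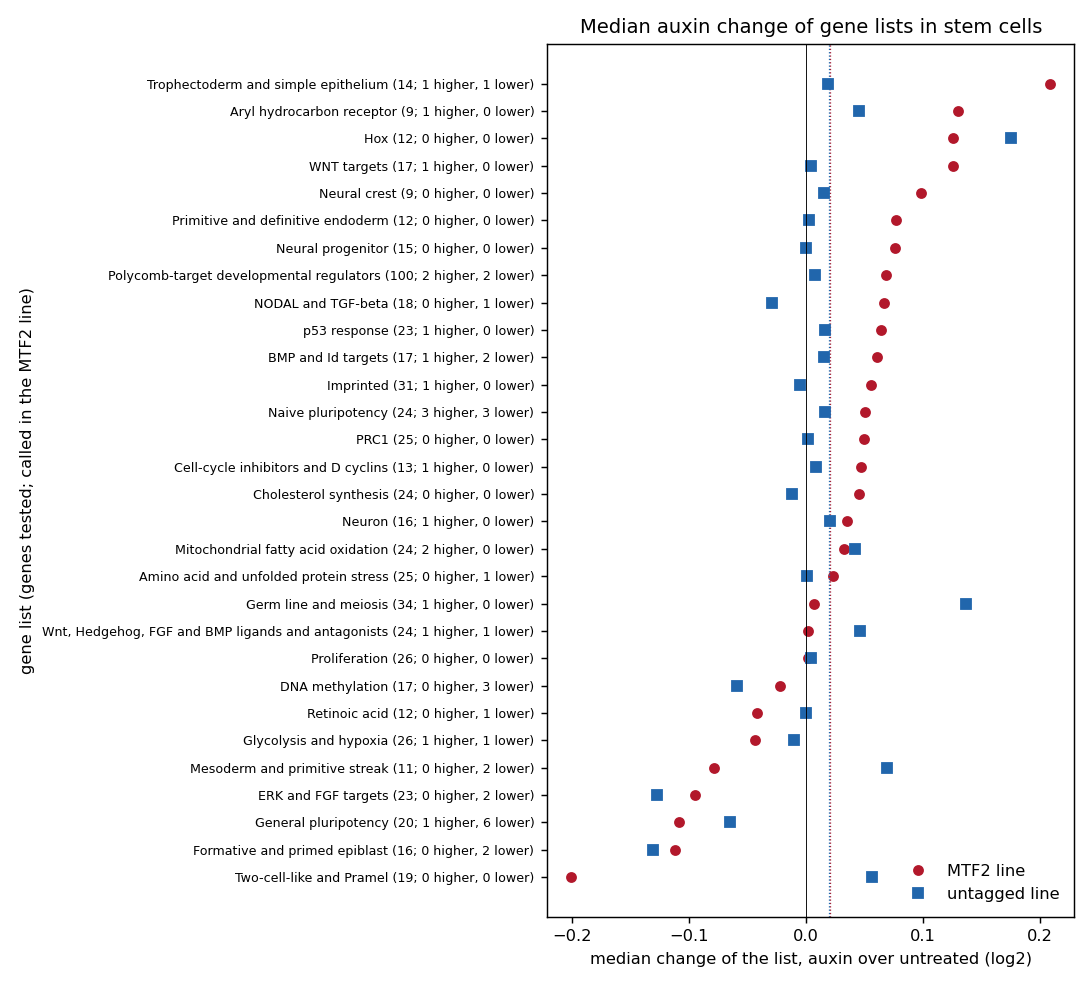
Median change after auxin (log2, horizontal) of 30 gene lists with 9 or more tested genes, in the MTF2 line (red circles) and the untagged line (blue squares); the label gives the genes tested and called in the MTF2 line, and dotted lines mark the median of all tested genes. General pluripotency, formative epiblast and ERK lists lie below 0 in both lines, and the trophectoderm list lies at 0.21 in the MTF2 line and 0.02 in the untagged line.

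Lists of signalling antagonists, metabolism and stress gave 0 to 2 calls each, where 1.09% of all tested genes were called. Sfrp1, a secreted WNT antagonist, was at 90, 92.7 and 95.4 TPM with auxin, against 71.8, 68.7 and 73.1 TPM untreated (0.38 ± 0.06, adjusted p = 0.00251), while untagged cells overlapped, at 60.2 to 64.3 TPM with auxin and 55.1 to 66.2 TPM untreated (0.04). The cell cycle inhibitor gene Cdkn1a was at 156, 156 and 151 TPM with auxin, against 123, 124 and 122 TPM untreated (0.33, adjusted p = 2.4e-05), and rose in untagged cells too (0.25, adjusted p = 0.00179). The calls of Sfrp1 and Cdkn1a held in all 14 alternative settings run for each. Cdkn1a was the 1 call among 23 tested p53 response genes and the 1 among 13 cell cycle inhibitors and cyclins, and 0 of 26 proliferation genes were called (2 at an unadjusted p under 0.05). Of 26 tested glycolysis and hypoxia genes, Hk1, the hexokinase, rose (0.26) and Pdk1, a kinase that inhibits pyruvate dehydrogenase, fell. The Hk1 call held in 5 of 14 settings and was lost without untreated replicates 1 or 2 or any auxin replicate. Pdk1 was at 6.29, 5.83 and 6.41 TPM with auxin, against 10.7, 9.69 and 10.3 TPM untreated (-0.68, adjusted p = 0.00241), and untagged cells changed by -0.39 (adjusted p = 0.26). The amino acid transporter gene Slc7a3 fell (-0.26) as the 1 call of 25 stress genes, and the imprinted gene Peg12 rose (0.40) as the 1 call of 31. The Slc7a3 call was lost without auxin replicate 1, and the Peg12 call without untreated replicates 1 or 3 or auxin replicates 2 or 3.

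Trophectoderm and epithelial genes had a median of 0.21 over 14 tested, with Tfap2c called higher and Eomes lower (0.629% and 0.457% over all tested genes). At an unadjusted p under 0.05 there were 7 of the 14, against 11.24% of all tested genes. In untagged cells there was 1 of the 14, against 7.57% of all tested genes. Tfap2c, a factor of trophoblast, germ line and naive stem cells, was at 111, 112 and 124 TPM with auxin, against 101, 96.8 and 99.7 TPM untreated (0.22, adjusted p = 0.0101), a call lost without auxin replicate 3. The neuronal tubulin gene Tubb3 was at 306, 291 and 319 TPM with auxin, against 278, 256 and 249 TPM untreated (0.23, adjusted p = 0.0241), a call lost without untreated replicates 2 or 3 or auxin replicates 1 or 3. It was the 1 call of 16 tested neuron markers. None was called of the other markers, 0 of 15 neural progenitor, 0 of 12 endoderm and 0 of 5 fibroblast (3, 2 and 0 at an unadjusted p under 0.05). Tested genes passed a filter over all stem cell lines. Fabp7, a tested neural progenitor marker, had 0 reads in the 6 MTF2 libraries and could not be called.

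The change beyond that of untagged cells was tested gene by gene as a difference of the 2 changes. In total 1 gene was called (0.00662% of those tested), and 885 had an unadjusted p under 0.05, which is 5.86%. That gene was Acaa2, the mitochondrial thiolase of fatty acid oxidation, at chr18:74779197-74806208. It was at 39, 38.9 and 38.1 TPM with auxin, against 28.8, 22.8 and 27.8 TPM untreated in MTF2 cells. In untagged cells it was at 26.5, 26.8 and 31.4 TPM with auxin, against 36.6, 33 and 32.4 TPM untreated. The groups did not overlap in either line and lay in opposite order, with changes of 0.55 in MTF2 cells and -0.27 in untagged cells. The difference was 0.81 (95% interval 0.55 to 1.08, adjusted p = 0.0402).

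The Acaa2 call was close to the threshold. It kept its sign in all 20 alternative settings, at 0.709 to 0.888, with adjusted p-values of 0.0168 to 0.236, and held in 6 of them. It was lost without MTF2 untreated replicate 2 (adjusted p = 0.142), without MTF2 auxin replicates 1, 2 or 3 (0.16, 0.0822 and 0.129), without untagged untreated replicates 1, 2 or 3 (0.0804, 0.107 and 0.0781) and without untagged auxin replicates 1 or 2 (0.236 and 0.0763). It was also lost with no filter (0.0529), median-of-ratios scaling (0.0745), the replicate block (0.0587), voom on recovered reads (0.0624) and the compared libraries alone (0.167). Of the 24 tested fatty acid oxidation genes, 2 were called higher in MTF2 cells, against 0.629% of all tested genes. Beside Acaa2 this was Echs1, the enoyl-CoA hydratase, at 144, 162 and 151 TPM with auxin against 125, 135 and 134 TPM untreated (0.21, adjusted p = 0.0378). The Echs1 call held in 5 of 14 settings and was lost without any 1 MTF2 library other than auxin replicate 1. Untagged Echs1 overlapped and changed by 0.07. The list's median was 0.03 in MTF2 cells and 0.04 in untagged cells.

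The 4 next genes by p are given as values. Arl6, a ciliary GTPase, differed by 0.56, the heat shock cochaperone gene Dnajb3 by -2.32, the pseudogene Rpl13-ps6 by 0.90 and Dmrtc1c2 by -0.59, with adjusted p-values of 0.287 to 0.295. Dnajb3 rested on 10 to 32 reads a group. Reads of the last 2 may be shared with near-identical copies. Among the 164 MTF2 calls, 72 differed from untagged cells at an unadjusted p under 0.05, all with the larger change in MTF2 cells, and 92 had a 95% interval that included 0. Since the genes were selected by the same MTF2 libraries, that selection favours a larger change there. The interval, which is not adjusted for the number of genes, reached 0.208 to either side of the estimate at the median over the calls. Differences of that order were not detectable for a typical called gene. Larger ones could also miss a call after correction, as did that of Rftn1 at 0.81 (limma, adjusted p = 0.595).

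The SUZ12 and JARID2 lines gave side values for the loss of the core and of the alternative accessory subunit. SUZ12 cells had 1031 calls with auxin (6.83%) and JARID2 cells 45 (0.298%). Of the 164 MTF2 calls, 91 were called in the same direction in SUZ12 cells (55.5% of the MTF2 and 8.83% of the SUZ12 calls), and 150 had the same sign (91.5%, against 58.2% of all tested genes). In JARID2 cells 29 were called in the same direction (17.7% of the MTF2 and 64.4% of the JARID2 calls), and 155 had the same sign (94.5%, against 56.5% of all tested genes). All 69 genes called lower in MTF2 cells were below 0 in JARID2 cells. The lines share no library, but auxin was common to all.

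Among the named rises, Rftn1 changed by 0.62 in SUZ12 cells (adjusted p = 0.0172) and -0.04 in JARID2 cells. In SUZ12 cells Pdlim4 rose by 1.04 (adjusted p = 0.02), Megf11 by 0.70 (adjusted p = 0.0101), Mlxipl by 0.77 (adjusted p = 0.00319), Tlx2 by 0.91 (adjusted p = 0.0044) and Sfrp1 by 0.52 (adjusted p = 4.44e-05). In JARID2 cells the changes were 0.12 for Pdlim4, 0.15 for Megf11, -0.14 for Mlxipl, 0.01 for Tlx2 and 0.10 for Sfrp1, with no call. Ogfod2 changed by -0.04 in SUZ12 cells and -0.33 in JARID2 cells and was called in neither. In all, 7 of the 12 named rises were called higher in SUZ12 cells and 1, Cyp1a1, in JARID2 cells. Of the 12 named falls, 7 were called lower in SUZ12 cells and 4 in JARID2 cells.

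**Figure D5:**
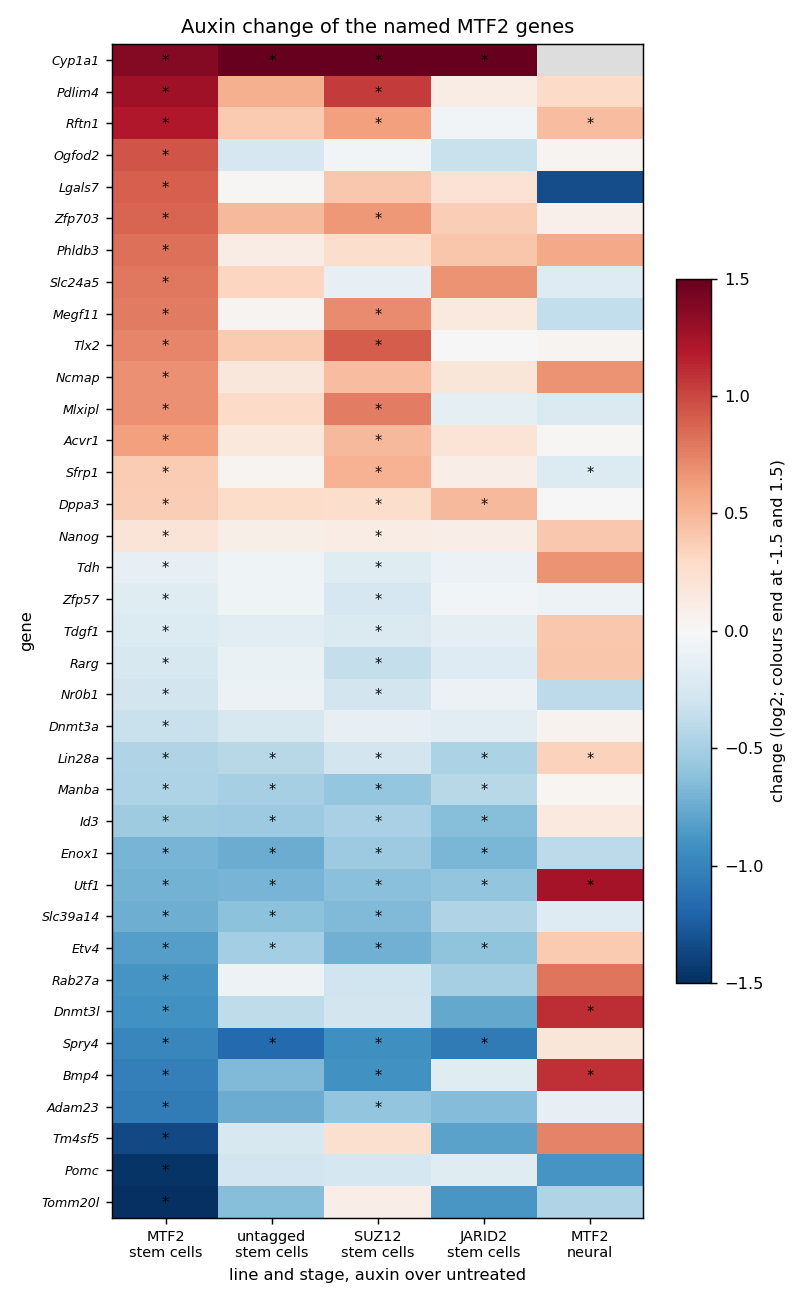
Change after auxin (log2, colour, red higher and blue lower, ending at -1.5 and 1.5) of 37 named genes called in MTF2 stem cells, in MTF2, untagged, SUZ12 and JARID2 stem cells and in MTF2 neural cultures; stars mark calls and grey a gene that was not tested. Utf1, Etv4, Spry4, Id3, Manba, Lin28a, Enox1 and Cyp1a1 carry stars in all 4 stem cell lines. The rises Rftn1, Pdlim4, Zfp703, Megf11, Tlx2, Mlxipl and Sfrp1 carry them in MTF2 and SUZ12 cells and not in untagged or JARID2 cells. The falls Bmp4 and Adam23 do so too, and for none of these genes was a difference between lines called.

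The direct test of MTF2 against SUZ12 cells called 4 genes (0.0265%), with 1633 at an unadjusted p under 0.05. Dusp9, an ERK phosphatase, averaged 71 ± 2.18 TPM with auxin and 84.7 ± 2.82 TPM untreated in MTF2 cells, and 97 ± 3.56 TPM with auxin and 83 ± 2.35 TPM untreated in SUZ12 cells (SD, n = 3 each). The difference was -0.48 (adjusted p = 0.00229). Dmrtc1c2 differed by -0.77 and the cochaperone gene Bag3 by -0.74 (both adjusted p = 0.0205), and the membrane raft gene Flot1 by 0.80 (adjusted p = 0.0426). Bag3 changed by 0.08 in MTF2 cells and 0.83 in SUZ12 cells. The median difference over all tested genes was -0.07, and median-of-ratios scaling gave 13 calls, 9 higher and 4 lower, against 1 higher and 3 lower on TPM. The count was 1 without MTF2 untreated replicates 1 or 2 or SUZ12 untreated replicate 2, 2 without MTF2 auxin replicate 3 or SUZ12 auxin replicate 2, and 3 to 6 without any other library.

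The test of MTF2 against JARID2 cells called 0 genes (0%) with limma, with a smallest adjusted p of 0.128 and 898 genes at an unadjusted p under 0.05. Voom on the recovered reads gave 0 as well. The 95% interval of a difference reached 0.354 to either side at the median of all tested genes in the comparison with untagged cells, which has the same design. The count was 1 without MTF2 untreated replicate 3 or JARID2 untreated replicate 2.

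In MTF2 neural progenitor cultures (NPC), differentiated for 5 days with auxin throughout, the same line had 1340 calls (8.14% of 16469 tested), 828 higher (5.03%) and 512 lower (3.11%), though median-of-ratios scaling gave 722 higher and 805 lower. The count fell to 788 and 874 without untreated replicates 2 and 3, to 844 without auxin replicate 3 and to 601 with the compared libraries fitted alone. The auxin change of untagged NPC was not tested here, so none of these NPC changes is set against auxin alone. Of the 162 stem cell calls tested in NPC, 89 had the same sign (54.9%), against 52.7% of all genes tested at both stages, and 20 were called in the same direction. Of the 69 stem cell falls, 27 were below 0 in NPC. Utf1 averaged 31.8 ± 2.33 TPM with auxin and 13.3 ± 2.58 TPM untreated in NPC (SD, n = 3 each; 1.25, adjusted p = 0.00136). Bmp4 changed by 1.10 (adjusted p = 0.0027) and Dnmt3l by 1.11 (adjusted p = 0.0206), each opposite in sign to its stem cell change. Rftn1 rose at both stages (0.47 in NPC, adjusted p = 0.0388), and Acaa2 changed by 0.05 in NPC (adjusted p = 0.837). The titles of these libraries read day 0, whereas source, stage and treatment time give NPC, which was followed.

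Over sets of genes the promoter table could not be used. It held 73 of the 95 genes called higher (76.8%), 50 of the 69 called lower (72.5%) and 72.3% of all tested, under the 80% that a comparison would need, so the check of CpG content is void.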

How the data were processed

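The values are the deposited TPM, which the authors gave as 1 table holding 35856 gene symbols. Alignment used STAR 2.6.1d and the mm10 build, per the submitters' processing notes. How reads were counted, and with which annotation, is not given in the sources used here. Per the labels' protocols, polyadenylated RNA was made into strand-specific libraries by the dUTP method. All 47 columns were used. Coordinates are from GENCODE M21 (GRCm38, which is mm10), and promoter sequences are from RefSeq (GRCm38.p6).

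For each gene and library, the TPM values rise in steps, each worth 1 read. Reads recovered from these steps came out whole for 99.9% of values above 0, within 0.001 of a whole number. Each step was found from the gene's own values, so that share is partly built in. With a single step of plausible length it was 98.1%. For 747 genes (2.36% of TPM) the step was set from exon length. The read sums give the depth, and the floors cover counting error only. The intervals of changes and of differences come from limma's standard errors, which measure the spread between these libraries.

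A gene was tested when 2 or more libraries of its stage, of any line, reached 1 TPM. Some tested genes therefore had few or 0 reads in MTF2 cells. The test was limma's moderated linear model (version 3.58.1, R 4.3.3; trended, robust eBayes) of log2(TPM + 0.5), fitted once to the 8 groups of each stage. Differences between lines were contrasts in that fit. The script was tested on simulated data. The 35 gene lists came from general knowledge. The members and lists were chosen with earlier results of these data known. Named genes were the 12 largest rises and 12 largest falls among calls without overlap, leaving out unnamed gene models; all calls of the differences, or the 5 with the smallest p; up to 4 called members of a list, or 2 as values; and PRC2 genes. Alternatives were pseudocounts of 0.1 and 1, no filter, a filter of 5 TPM, median-of-ratios scaling, a replicate block, voom on recovered reads, the compared libraries alone, and each replicate left out. Replicates differed by a chi-square of 1.07 to 1.54 per degree of freedom. Groups came from the labels. Their replicate numbers are not stated to mark a shared day or batch, and p-values measure the spread between these samples. Some genes of the table are not reported here.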

Additional observations from a re-analysis of the deposited data

Results flagged for a closer look

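The auxin change of 5 genes differed between MTF2 stem cells and another line by a test of the difference itself. Acaa2 differed from untagged cells by 0.812 on the log2 scale, a call that held in 6 of 20 alternative settings. It was at 38.1 to 39 TPM with auxin and 22.8 to 28.8 TPM untreated in MTF2 cells, and at 26.5 to 31.4 TPM with auxin and 32.4 to 36.6 TPM untreated in untagged cells.

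The other 4 differed from SUZ12 cells, a count that moved with the processing and the libraries kept, as given below. Dmrtc1c2 differed by -0.77, with 13.2 ± 1.94 TPM with auxin and 17.4 ± 0.324 TPM untreated in MTF2 cells, and 32.4 ± 1.74 TPM with auxin and 24.9 ± 2.05 TPM untreated in SUZ12 cells (SD, n = 3 each). Bag3 differed by -0.744, with 17.7 ± 1.61 TPM with auxin and 16.6 ± 1.47 TPM untreated in MTF2 cells, and 25.1 ± 0.651 TPM with auxin and 13.9 ± 0.361 TPM untreated in SUZ12 cells. Dusp9 differed by -0.475. Flot1 differed by 0.797, with 22.9 ± 2.68 TPM with auxin and 15.7 ± 0.616 TPM untreated in MTF2 cells, and 17.3 ± 1.07 TPM with auxin and 21.1 ± 1.93 TPM untreated in SUZ12 cells.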

How the results depend on the processing

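The 164 MTF2 calls became 26 with the compared libraries alone and 85 to 158 with 1 replicate left out, and 142 to 181 under the other settings. The 32 untagged calls became 56 with voom on recovered reads and 18 to 24 with 1 replicate left out. The 1 call of the MTF2 and untagged difference became 0 with median-of-ratios scaling, the replicate block, voom and the compared libraries alone, and 0 to 2 with 1 replicate left out. The 4 calls of the MTF2 and SUZ12 difference became 9 with no filter, 13 with median-of-ratios scaling, 8 with the replicate block, 56 with voom, 2 with the compared libraries alone and 1 to 6 with 1 replicate left out. The 0 calls of the MTF2 and JARID2 difference became 2 with no filter and 0 to 1 with 1 replicate left out. The 1340 NPC calls became 601 with the compared libraries alone and 788 to 1135 with 1 replicate left out. The cause of these shifts was not tested.

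Same-numbered MTF2 libraries had correlated deviations of -0.007 to 0.026 and others of -0.025 to 0.013, so the numbers were not taken to pair samples. The replicate block gave 162 MTF2, 31 untagged and 1698 NPC calls. Over the 55 named called genes, 766 changes were recomputed, with 583 still called, 183 no longer called and 0 reversed. In total 11 genes were called under every setting and 24 without each library in turn. All of those 11 but Sfrp1 were also called in untagged cells.

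At 3.27 to 6.23 M reads per library, genes near 1 TPM rested on few reads, and their changes have wide intervals.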
